A study of Mus musculus with 35 samples.

Results

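Basophils and mast cells are the effector cells of immediate allergic reactions. They hold IgE on a surface receptor made of an alpha, a beta and a gamma chain, and when the receptor is crosslinked they release granules with proteases and histamine. Both lineages arise in the bone marrow, where progenitors that carry GATA2 begin to transcribe the genes of the granules and of the receptor before the cells mature. Described here are 7 such genes, out of the 11982 gene names in a table of RNA-seq values of mouse hematopoietic stem and progenitor cells (HSPCs). They are the proteases Prss34, Mcpt8 and Cpa3, the histamine-forming enzyme Hdc, the receptor chains Fcer1a and Ms4a2, and the surface receptor Cd200r3. The set was chosen by gene function and selected on the RPKM of these same 4 libraries, in which an earlier reading had found the genes low in JMJD1B-/- cells. Their difference between the genotypes is therefore given as a description, without a test, and no cut-off separated them from other genes.

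The cells were HSPCs from bone marrow of mice on a 129P2xC57BL/6J background, either wild type (WT, 2 libraries) or JMJD1B-/- (2 libraries). JMJD1B, the product of Kdm3b, is a demethylase that acts on histones, and the mutant allele is a gene-trap knockout. Age-matched littermates are described for the HSPCs in which histone marks were mapped. Animals of both sexes are described for the study as a whole. The markers used to isolate the HSPCs for RNA are not given in the sources used here. No other treatment is named for either genotype. Whether each library came from 1 animal or from a pool is not stated, so the spread between libraries may be partly technical.

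Polyadenylated RNA was measured as RPKM, the reads per kilobase of transcript scaled to the reads of the library, in which levels of different genes can be compared per length. The depth recovered from the values was 17500000 and 24600000 reads for WT replicates 1 and 2, and 6110000 and 21000000 reads for JMJD1B-/- replicates 1 and 2. A level of 3 reads on 1 kb is worth 0.171 and 0.122 RPKM in WT and 0.491 and 0.143 RPKM in JMJD1B-/- libraries, which covers counting error alone. Kdm3b had 31 and 24.3 RPKM in WT and 4 and 4.63 RPKM in JMJD1B-/- cells, so the targeted gene followed the labels. Xist was high in WT replicate 2 alone (332 RPKM, elsewhere no more than 0.051 RPKM), and Y-linked genes were low in that library alone. Of 12 HSPC markers all were measured and none was listed at 0. Ly6a had the lowest WT mean of the 12, with 1.92 and 2.96 RPKM in WT and 2.17 and 0.629 RPKM in JMJD1B-/- libraries. The stem cell factor receptor Kit had 66.9 and 62.5 RPKM in WT and 51.6 and 92.7 RPKM in JMJD1B-/- libraries, and Cd34, a surface marker of progenitors, had 42.9 and 43.5 against 20.9 and 11.7 RPKM.

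The 250 bases before the start site were read for each of the 7 genes from RefSeq sequence of build GRCm38.p6, where all 7 matched by symbol. GATA factors bind the letters AGATAA or AGATAG and also TGATAA or TGATAG, on either strand, and 6 of the 7 windows held at least 1 match, 10 matches in all. Of 32841 promoter windows of the same length, 26.5% held such a match. The windows printed here are those of the protease genes and of the pair with 3 matches each, because they show where the matches lie. They run 5′ to 3′ on the strand of the gene, with GATA matches in capitals. Prss34 lies at chr17:25298144-25298393 on the plus strand, Cpa3 at chr3:20242182-20242431 and Mcpt8 at chr14:56085198-56085447, both on the minus strand.
Prss34: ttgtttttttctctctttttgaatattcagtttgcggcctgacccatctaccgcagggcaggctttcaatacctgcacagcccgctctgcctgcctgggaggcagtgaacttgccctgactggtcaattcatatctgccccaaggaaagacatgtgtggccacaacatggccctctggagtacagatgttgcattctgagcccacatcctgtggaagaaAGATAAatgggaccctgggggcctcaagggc
Cpa3: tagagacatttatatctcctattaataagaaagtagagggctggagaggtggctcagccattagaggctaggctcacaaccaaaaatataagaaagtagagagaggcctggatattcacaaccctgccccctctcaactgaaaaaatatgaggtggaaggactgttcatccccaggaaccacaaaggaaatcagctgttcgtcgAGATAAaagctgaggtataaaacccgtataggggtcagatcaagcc
Mcpt8: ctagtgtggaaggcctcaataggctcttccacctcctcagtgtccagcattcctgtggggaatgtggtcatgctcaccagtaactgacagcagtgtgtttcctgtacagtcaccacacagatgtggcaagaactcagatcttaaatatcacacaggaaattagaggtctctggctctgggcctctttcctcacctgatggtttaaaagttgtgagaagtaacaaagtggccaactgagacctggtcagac
Prss34 and Cpa3 held 1 match each, at positions −31 and −46 from the start site. Mcpt8 was the gene with no match in its window. The windows of Ms4a2 (chr19:11623720-11623969, minus strand) and Cd200r3 (chr16:44943428-44943677, plus strand) follow.
Ms4a2: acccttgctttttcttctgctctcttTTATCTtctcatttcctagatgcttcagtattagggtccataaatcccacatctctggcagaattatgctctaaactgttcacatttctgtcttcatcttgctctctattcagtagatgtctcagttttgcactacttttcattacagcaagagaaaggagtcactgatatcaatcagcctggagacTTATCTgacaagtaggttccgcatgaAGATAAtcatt
Cd200r3: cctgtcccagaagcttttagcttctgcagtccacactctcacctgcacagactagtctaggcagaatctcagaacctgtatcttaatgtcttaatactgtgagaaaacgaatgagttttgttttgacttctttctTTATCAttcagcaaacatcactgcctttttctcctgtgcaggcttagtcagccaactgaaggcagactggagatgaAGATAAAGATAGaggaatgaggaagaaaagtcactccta
In Ms4a2 the matches began at −224, −37 and −11. In Cd200r3 they began at −115, −39 and −33, and the last 2 abut without overlap. Fcer1a had 1 match at −92 and Hdc 1 at −221. Other motifs were less frequent in the 7 windows. The RUNX letters TGTGGT, on either strand, were in 3 windows (14% of all promoters), the CEBP letters TTGCNNAA in 2 (9.57%), the STAT letters TTCNNNGAA in 0 (7.02%) and the letters TATAAA, sense strand only, in 2 (7.59%). None of these matches overlapped a GATA match. A match describes the sequence and does not show that a factor binds there.

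The serine proteases Prss34 and Mcpt8 were the most abundant of the 7 transcripts. Prss34, a tryptase-like serine protease stored in basophil granules, had 246 RPKM in WT replicate 1, 258 RPKM in WT replicate 2, 30.6 RPKM in JMJD1B-/- replicate 1 and 19.9 RPKM in JMJD1B-/- replicate 2. In the WT libraries its mean of 252 ± 8.27 RPKM (SD, n = 2) exceeded that of 98.6% of all listed genes, and in the JMJD1B-/- libraries its mean of 25.3 ± 7.53 RPKM (SD, n = 2) exceeded that of 78.0%. The lower WT library was 8.05 times the higher JMJD1B-/- library, and the log2 fold change of RPKM + 0.1 was −3.35 (SE 0.23). Mcpt8, the granule protease by which mouse basophils are commonly identified, had 111 and 172 RPKM in WT and 41 and 12.4 RPKM in JMJD1B-/- libraries. The genotypes did not overlap, but libraries of 1 genotype differed more than for Prss34. Its log2 fold change was −2.61 (SE 0.51). Cpa3, carboxypeptidase A3 of mast cell and basophil granules, had 29.9 and 41.8 RPKM in WT and 9.49 and 4.82 RPKM in JMJD1B-/- libraries, with a log2 fold change of −2.37 (SE 0.34). Again every JMJD1B-/- value was below every WT value. Mcpt8 and Prss34 belong to families of related proteases, and how the counting treated reads shared between relatives is not given in the sources used here.

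Hdc encodes histidine decarboxylase, which makes histamine. Its level was 31.6 and 26.6 RPKM in WT, against 14.5 and 4.22 RPKM in JMJD1B-/- cells. This was the smallest difference of the 7 genes, with a log2 fold change of −1.87 (SE 0.50), and JMJD1B-/- replicate 1 kept 49.8% of the WT mean against 14.5% in replicate 2.

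Of the IgE receptor, Fcer1a encodes the alpha chain that binds IgE and Ms4a2 the beta chain that amplifies the signal. Fcer1a had 34.8 and 31.1 RPKM in WT and 9.54 and 2.1 RPKM in JMJD1B-/- libraries (log2 fold change −2.84, SE 0.59). Ms4a2 had 34.7 and 30.3 RPKM in WT and 5.85 and 2.51 RPKM in JMJD1B-/- libraries (log2 fold change −3.04, SE 0.38). The alpha and beta chains stood at nearly the same level in WT cells, with a ratio of 1.0 and 1.03, and at 1.63 and 0.836 in the JMJD1B-/- libraries, on either side of the WT values. The gamma chain Fcer1g, which many other myeloid cells also use, had 25.9 and 19.9 RPKM in WT and 16.5 and 3.97 RPKM in JMJD1B-/- libraries. Its ratio to Fcer1a was 0.745 and 0.641 in WT and 1.73 and 1.89 in JMJD1B-/- libraries, so that the gamma chain was the more abundant of the pair in JMJD1B-/- cells.

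Cd200r3, an activating receptor of the CD200 receptor family on basophils and mast cells, had the lowest level and the largest difference of the 7 genes. It stood at 17 and 16.7 RPKM in WT and at 1.7 and 0.446 RPKM in JMJD1B-/- cells, 10.1% and 2.64% of the WT mean. The log2 fold change was −4.10 (SE 0.54) with a pseudocount of 0.1 and −3.18 with a pseudocount of 1, because the JMJD1B-/- levels are near or under 1 RPKM. The level in JMJD1B-/- replicate 2 is still above the 0.143 RPKM of 3 reads on 1 kb. Its relative Cd200r4 had 2.33 and 2.97 RPKM in WT and 0.768 and 0.251 RPKM in JMJD1B-/- libraries. Another relative, Cd200r1, named after its values were seen, had 9.51 and 7.74 against 7.42 and 2.37 RPKM, so that JMJD1B-/- replicate 1 came close to the WT libraries.

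**Figure D1:**
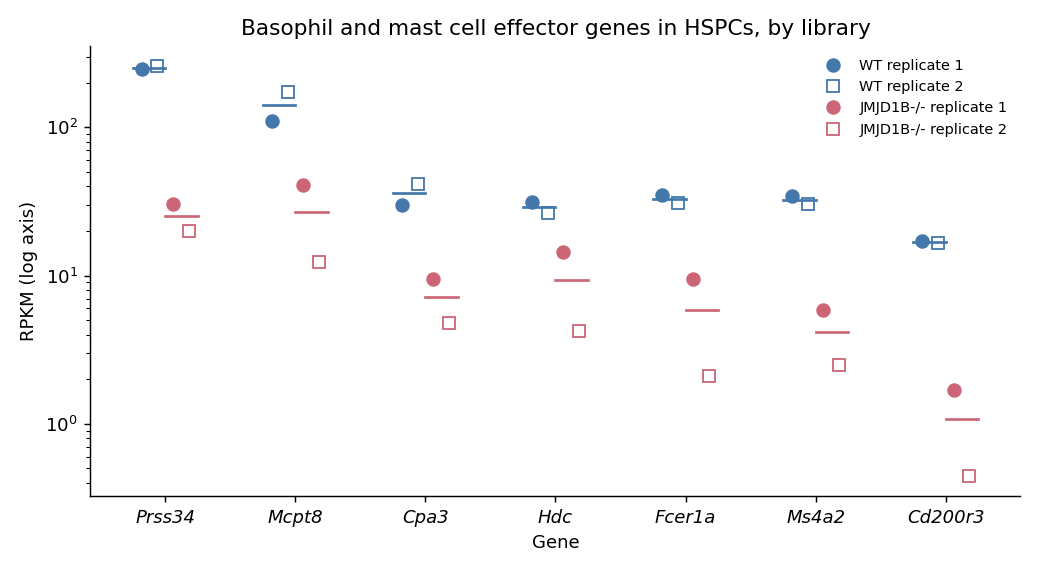
RPKM on a log axis for each of the 7 genes in the 4 libraries (blue, WT; red, JMJD1B-/-; filled circles, replicate 1; open squares, replicate 2), with a short line at the mean of each genotype. For every gene both red symbols lie below both blue ones, and the open red square lies below the filled red circle.

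For 7 of the 7 genes, every JMJD1B-/- value was under every WT value. Of all 11863 genes tested, 22.7% showed the same arrangement, and since the genes were chosen for it nothing is read from their count. Their median log2 fold change was −2.84, beside −0.025 for all genes tested. In these bulk libraries, fewer cells of a type and less RNA per cell cannot be told apart. Summed over the 7 genes, the level was 505 and 576 RPKM in WT and 113 and 46.4 RPKM in JMJD1B-/- libraries, or 20.8% and 8.58% of the WT mean.

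In the WT libraries Prss34 stood first in the order of levels, Mcpt8 next (141 ± 43.0 RPKM, SD, n = 2), and the ranges of this pair did not overlap. Cpa3 (35.9 ± 8.39), Fcer1a (32.9 ± 2.63), Ms4a2 (32.5 ± 3.09) and Hdc (29.1 ± 3.48 RPKM) followed, and neighbours among these 4 did not differ beyond their spread. Cd200r3 (16.9 ± 0.195 RPKM) was below all of them in both libraries. In the JMJD1B-/- libraries Mcpt8 (26.7 ± 20.3 RPKM) and Prss34 (25.3 ± 7.53 RPKM) overlapped, as did Hdc (9.35 ± 7.25), Cpa3 (7.15 ± 3.3), Fcer1a (5.82 ± 5.26) and Ms4a2 (4.18 ± 2.36 RPKM), and Cd200r3 (1.07 ± 0.888 RPKM) was again the lowest. Prss34 made up 48.7% and 44.8% of the summed RPKM in WT libraries and 27.1% and 43.0% in JMJD1B-/- replicates 1 and 2. Mcpt8 relative to Prss34 was 0.451 and 0.666 in WT and 1.34 and 0.62 in JMJD1B-/- libraries, so only JMJD1B-/- replicate 1 stood outside the WT range. Hdc relative to Prss34 was 0.128 and 0.103 in WT and 0.474 and 0.212 in JMJD1B-/- libraries, higher in both of the latter. Cpa3 relative to Mcpt8 stayed between 0.231 and 0.39 in all 4 libraries.

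The JMJD1B-/- libraries also differed from each other. All 7 genes were lower in replicate 2 than in replicate 1, by a ratio between 1.53 for Prss34 and 4.54 for Fcer1a. Among all genes tested, 34.4% were lower in JMJD1B-/- replicate 2 than in replicate 1, and 12.1% had a ratio of replicate 1 to 2 at least as large as that of Prss34. Among all tested genes whose JMJD1B-/- values were both under both WT values, 43.0% were lower in replicate 2. The WT libraries showed no such order, with 4 of the 7 genes lower in WT replicate 2 and ratios of replicate 2 to 1 between 0.844 for Hdc and 1.55 for Mcpt8. Without JMJD1B-/- replicate 2 the median log2 fold change of the 7 genes was −1.89, and it was −3.64 without JMJD1B-/- replicate 1, which has the lowest depth. Without WT replicate 2, the library with Xist, it was −2.92. JMJD1B-/- replicate 1 differs from the others in depth too, and the part of depth in the values was not tested.

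**Figure D2:**
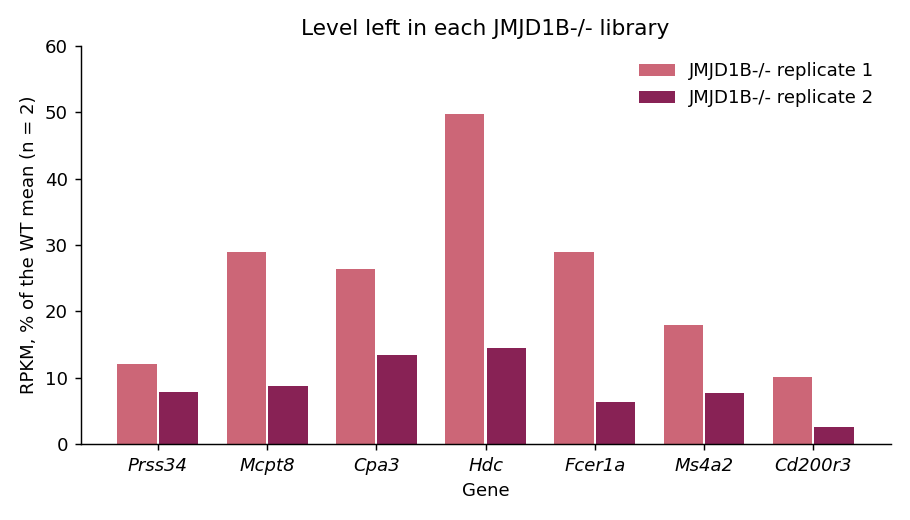
RPKM of each gene in JMJD1B-/- replicates 1 and 2 as a percent of the mean of the 2 WT libraries, on an axis that starts at 0. Replicate 1 ranges from 10.1% for Cd200r3 to 49.8% for Hdc and replicate 2 from 2.64% for Cd200r3 to 14.5% for Hdc.

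Genes related to the 7 by function were followed in 6 lists, which were also written with earlier results of these libraries known. Bulk libraries do not show whether their RNA came from the same cells as that of the 7 genes. Of 114 genes listed, 91 were tested with limma. At an unadjusted p under 0.05, 31 (34.1%) were lower in JMJD1B-/- cells and 2 were higher, against 6.33% lower and 3.81% higher of all genes tested. Such a share was not particular to the related genes. In marker lists of other blood cells, 62.5% of neutrophil granule genes and 57.1% each of monocyte and megakaryocyte markers were lower by that threshold. For HSPC markers it was 50%, for T and NK cell markers 14.3%, and for eosinophil and erythroid markers 0%. No related gene had an adjusted p under 0.05, and the lowest was 0.0768. Of all genes tested, 0.0337% were lower and 0.00843% higher by that adjusted threshold. For 54 related genes (59.3%) the JMJD1B-/- values were under both WT values and for 7 above both, beside 22.7% and 20.1% of all genes tested. The gene-by-gene test called 12 of them lower, and without WT replicate 1 the count was 13.

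In the lists that follow, a count of lower or higher genes is at an unadjusted p under 0.05 in limma, beside 6.33% lower and 3.81% higher of all genes tested. Among other granule genes, 3 of 9 were lower at an unadjusted p under 0.05 and the median log2 fold change was −0.29. Srgn, the proteoglycan core that packs granules, had 191 and 235 RPKM in WT and 190 and 159 RPKM in JMJD1B-/- libraries (log2 fold change −0.29, adjusted p = 0.654, limma), and the monoamine transporter Slc18a2, which loads histamine, had 33.5 and 21.9 against 10.2 and 25.7 RPKM. Slc18a2 thus overlapped between the genotypes, and the Srgn values of WT replicate 1 and JMJD1B-/- replicate 1 were nearly equal. The lysosomal protease Ctsd had 56.4 and 56.9 against 65.3 and 70 RPKM. The lower genes included the peptidase Dpp4 (−2.06, adjusted p = 0.117, limma) and the cathepsin Ctss (−1.35, adjusted p = 0.483, limma). The connective tissue mast cell chymases and tryptases Mcpt4, Cma1, Tpsab1 and Tpsb2 were not analysed here, so the genes described cannot be assigned to basophils or mast cells by them.

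Downstream of the IgE receptor, 7 of 22 signalling genes were lower at an unadjusted p under 0.05, 0 were higher, and the median log2 fold change was −0.32. The largest differences were those of the gamma chain Fcer1g (−1.47, SE 0.58, adjusted p = 0.469, limma), the phospholipase Plcg2 (−1.07, SE 0.19, adjusted p = 0.159, limma) and the adaptor Lat2 (−0.91, SE 0.27, adjusted p = 0.348, limma). Prkcd (−0.77), the adaptor Lat (−0.64) and the kinase Syk (−0.57) followed. Syk, the kinase recruited by the gamma chain, still had 32.4 and 36.7 RPKM in JMJD1B-/- libraries against 57.9 and 45.3 RPKM in WT, and Btk had 31 and 44.6 against 46.8 and 46.3 RPKM.

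Of the receptors for growth factors and cytokines, 3 of 15 were lower at an unadjusted p under 0.05 (6.33% of all genes tested), 10 of 15 had a log2 fold change below 0, and the median was −0.41. The 3 were Il3ra, the alpha chain of the receptor for interleukin-3, the main growth factor of basophils (13.8 and 8.74 RPKM in WT, 4.31 and 5.6 RPKM in JMJD1B-/-; log2 fold change −1.15, adjusted p = 0.32, limma), and the beta chains Csf2rb (−1.60, adjusted p = 0.386, limma) and Csf2rb2 (−1.47, adjusted p = 0.395, limma). Kit, on which mast cells depend, had a log2 fold change of 0.10 (SE 0.28, adjusted p = 0.929, limma). The interferon gamma receptor Ifngr1 had −0.48 and Il18rap, a chain of the interleukin-18 receptor, −1.65, the latter with 25.4 and 2.82 RPKM in JMJD1B-/- replicates 1 and 2 against 25.6 and 28.6 RPKM in WT.

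Among 18 transcription factors, 4 were lower and 1 was higher at an unadjusted p under 0.05, with a median of −0.42. Gata2, needed for both lineages, had 73.3 and 52.9 RPKM in WT and 28.4 and 46.9 RPKM in JMJD1B-/- libraries (−0.77, SE 0.28, adjusted p = 0.435, limma). Unlike the effector genes, it was lower in JMJD1B-/- replicate 1 than in replicate 2. Cebpa, a factor of myeloid progenitors, had 13.4 and 12.7 against 1.05 and 2.36 RPKM (−2.96, SE 0.41, adjusted p = 0.0768, limma). Irf8 had −1.50 and Cbfb, the partner of RUNX proteins, −0.56. Gata1 was the higher gene, with 32.8 and 35.9 RPKM in WT and 44.5 and 63.6 RPKM in JMJD1B-/- libraries (0.63, SE 0.22, adjusted p = 0.425, limma). The abundant factors Lmo2, Zfpm1 and Ikzf1 had log2 fold changes of 0.13, 0.06 and 0.34.

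Other surface genes had a median of −1.03, with 5 of 12 lower and 1 higher at an unadjusted p under 0.05 (6.33% and 3.81% of all genes tested) and 9 of 12 below 0 in log2 fold change. The lower ones were C3ar1, the receptor for complement C3a (−2.39), Cd200r4 (−2.31), Clec12a (−1.52), Itga2, whose product CD49b is used to stain basophils (−1.04), and Cd63, whose product reaches the surface on degranulation (−1.02). Their adjusted p-values in limma were 0.433, 0.347, 0.472, 0.424 and 0.361. Cd24a was higher (0.93, adjusted p = 0.284, limma), and the abundant Itga4 and Lamp1 had 0.13 and 0.11. Mediator and cytokine genes had the lowest median, −1.77, with 9 of 15 lower and 0 higher at an unadjusted p under 0.05 (6.33% and 3.81% of all genes tested) and 15 of 15 below 0 in log2 fold change. They included the chemokine Ccl3, with 41.3 and 47.6 RPKM in WT and 5.99 and 1.64 RPKM in JMJD1B-/- libraries (−3.77, SE 0.52, adjusted p = 0.0768, limma), Il6 (−3.15, SE 0.43, adjusted p = 0.0768, limma), Ccl4 (−2.66), Csf1 (−2.63), the steroid-forming enzyme Cyp11a1 (−2.63) and Ccl9 (−2.18). Ptgs1, which makes prostaglandin precursors, had −0.95, and Alox5ap of the leukotriene pathway had −0.65, with 49.2 and 42.8 against 40.4 and 21 RPKM.

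**Figure D3:**
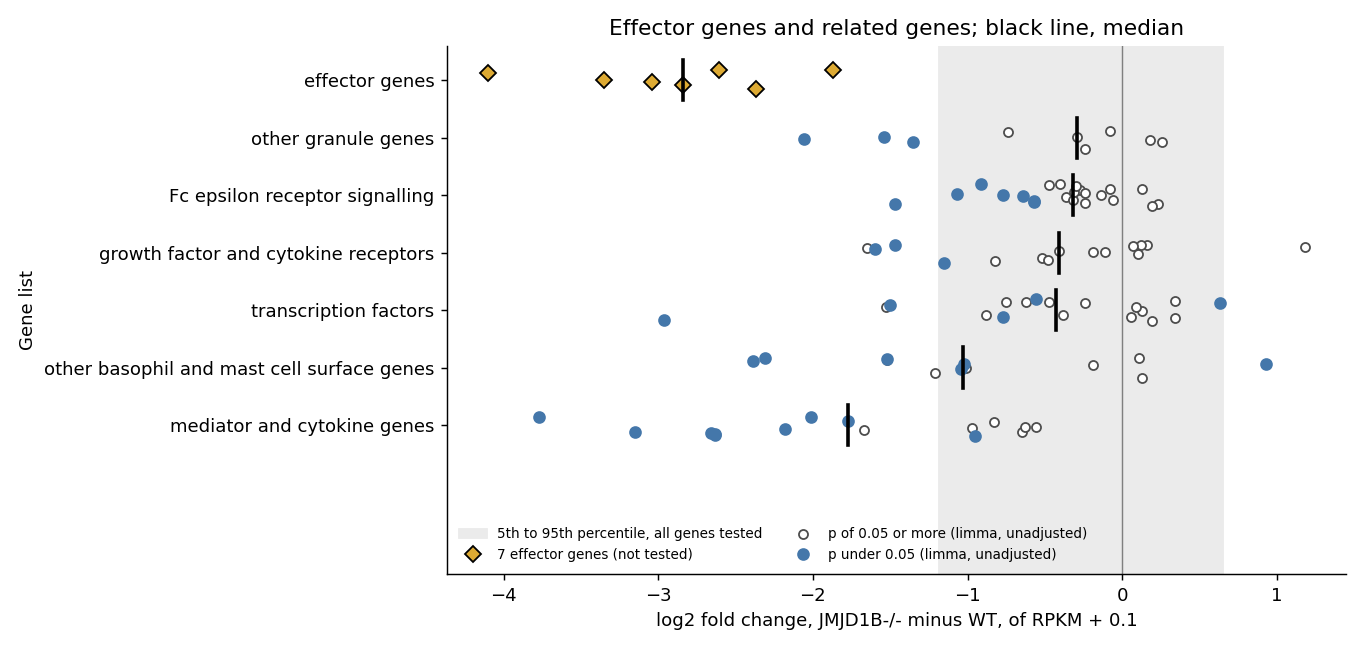
Log2 fold change (JMJD1B-/- minus WT, of RPKM + 0.1) of the 7 effector genes (diamonds) and of the tested genes of 6 related lists (circles; filled where the unadjusted limma p is under 0.05), with a black line at each median and a grey band from the 5th to the 95th percentile of all genes tested. The effector genes lie between −4.10 and −1.87, and the list medians range from −1.77 for mediators to −0.29 for other granule genes.

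The genes outside the 7 whose levels across the 4 libraries were most like theirs were found by the root mean square distance between a gene's centred log2 values and the median profile of the 7. Of 8306 genes with a mean of at least 5 RPKM, the 5 nearest were Cdh1 (0.074), Cyp11a1 (0.168), Ms4a3 (0.202), Ccr1 (0.231) and F13a1 (0.303), while the median gene had a distance of 1.57. Cdh1, the gene of E-cadherin, had 9.95, 8.68, 2.17 and 0.74 RPKM in WT replicates 1 and 2 and JMJD1B-/- replicates 1 and 2. Ms4a3, a relative of Ms4a2 found in granulocyte progenitors, had 23.5, 19.9, 6.11 and 2.3 RPKM. With 4 libraries such likeness is a description.

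Markers of other blood cells also differed by genotype or by replicate number. Of all genes tested, 22.7% were below both WT libraries, 20.1% above both and 6.33% lower at an unadjusted p under 0.05, and the counts that follow stand beside these shares. In the neutrophil granule list 5 of 8 genes were below both WT libraries and 2 above both, and its summed level was 292 and 202 RPKM in WT and 88.5 and 55.4 RPKM in JMJD1B-/- libraries. Of the monocyte and macrophage markers 3 of 7 were below both, with sums of 119 and 112 against 78.3 and 27.4 RPKM, and of the megakaryocyte markers 4 of 7, with sums of 694 and 624 against 272 and 384 RPKM. Erythroid markers went the other way, with 9 of 9 above both WT libraries and sums of 712 and 1020 against 1920 and 2560 RPKM. Of the eosinophil markers 0 of 8 were below both, while 7 of 8 were higher in both libraries numbered 1 than in both numbered 2, as were 9.26% of all genes tested. Their sums were 6060 and 1170 RPKM in WT replicates 1 and 2 and 5510 and 1230 RPKM in JMJD1B-/- replicates 1 and 2, carried mostly by the granule protein gene Prg2 (5380, 988, 4330 and 1080 RPKM in the same order). Ccr3, the exception, had 1.7, 2.47, 5.5 and 0.741 RPKM. The effector genes could not show that order, since each of their JMJD1B-/- values was under both WT values. Within the genotypes, 4 of the 7 were lower in WT replicate 2 than in WT replicate 1, and all 7 were lower in JMJD1B-/- replicate 2. Their sums in the WT libraries were 505 and 576 RPKM. Of the HSPC markers 6 of 12 were below both, and 6 of 12 were lower at an unadjusted p under 0.05 in limma, with sums of 524 and 490 against 335 and 446 RPKM. Of the T and NK cell markers 1 of 7 was below both and 2 of 7 were above both, with sums of 20.7 and 24.9 against 51.0 and 13 RPKM. Members of that list thus went both ways, which the sums do not show. The 1 B cell marker measured, Cd79b, had 3.28 and 1.99 against 1.22 and 0.631 RPKM. Camp, of the neutrophil list, was listed at 0 in WT replicate 2 and JMJD1B-/- replicate 1, and no other marker of these lists was listed at 0. The part of these cell types in the levels of the 7 genes was not tested.

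**Figure D4:**
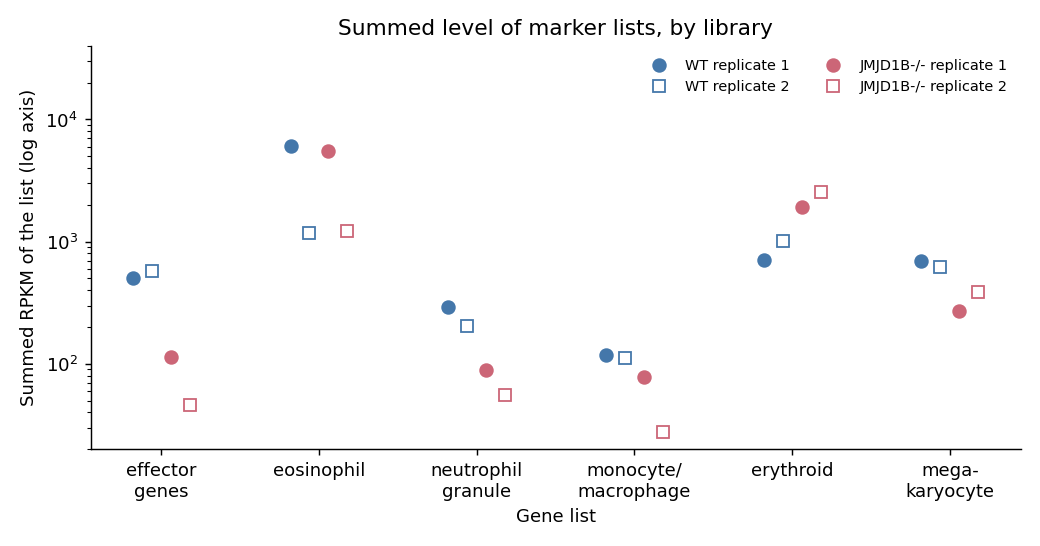
Summed RPKM on a log axis of the 7 effector genes and of 5 marker lists in each library (blue, WT; red, JMJD1B-/-; filled circles, replicate 1; open squares, replicate 2). The effector genes and the neutrophil granule list are lower in both JMJD1B-/- libraries, the erythroid list is higher in both, and the summed eosinophil list, mostly Prg2, separates by replicate number, near 6060 and 5510 RPKM in replicates 1 and 1170 and 1230 RPKM in replicates 2.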

How the data were processed

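Polyadenylated RNA of HSPCs was sequenced from 2 WT and 2 JMJD1B-/- libraries. The values are RPKM, 1 column per library in 1 table that the authors deposited after adding 1. The submitters' processing notes name TopHat2, Novoalign and build mm9. Which tool made the RPKM values, the counting program and the gene annotation are not given in the sources used here. The table lists genes with at least 1 RPKM in at least 1 library. The added 1 was subtracted here, and the 42 names with several entries were averaged. Samples other than these 4, of 35 in the series, were not used here.

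Depth was recovered from genes under 3 RPKM, whose values in different libraries form ratios of whole numbers up to 25 (tolerance 5e-06), and from the length of intronless genes. In all, 30 genes gave the depths printed here and the next best combination was given by 27, so the absolute depths are estimates. Read counts of the effector genes could not be recovered, and no count test was run. RPKM divides by length and total, so a change of very abundant genes shifts all others.

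The genotypes were compared by limma 3.58.1 under R 4.3.3 (eBayes with trend, two-sided, Benjamini-Hochberg over 11863 genes), without a replicate term, on log2 of RPKM plus 0.1 and for genes averaging 0.5 RPKM or more. The fit was tested on simulated data. This scale shrinks the fold change of genes with few reads. The other steps used numpy 2.4.6, pandas 2.3.3, scipy 1.17.1 and matplotlib 3.10.9 under Python 3.11.15. Beside the 7 genes, those named were, per related list, the 3 of highest WT mean and up to 6 with an unadjusted p under 0.05 (by size of change), the 5 of most similar profile, and Kdm3b. Cd200r1, Xist and the markers Cd34, Ly6a, Prg2, Ccr3, Camp and Cd79b are outside this rule and were named after their values were seen. The values of 1 gene that this rule names are not reported here. The 7 genes and all lists were chosen with earlier results of these data known. Tried as 13 alternatives were a pseudocount of 1 or 0.01, no filter, a filter at 1 RPKM, median-ratio scaling, quantile normalization, limma without trend, a gene-by-gene test, a replicate block and leaving out each library. Promoter windows came from RefSeq (GRCm38.p6).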

Additional observations from a re-analysis of the deposited data

How the results depend on the processing

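Under the 9 alternatives that used all 4 libraries, the median log2 fold change of the 7 effector genes lay between −2.87 and −2.57, and no gene of the 7 changed sign under any of the 13 alternatives. Leaving out a library gave medians from −3.64 to −1.89, the latter without JMJD1B-/- replicate 2. Cd200r3 was at −3.18 with a pseudocount of 1. Across all genes, 751 were lower and 452 higher at an unadjusted p under 0.05, with 4 and 1 at an adjusted p under 0.05. Quantile normalization gave 714 lower and 671 higher. The gene-by-gene test called 12 related genes lower in place of 31, and both it and limma without trend called 1 higher in place of 2. The cause was not tested. Counts over all genes moved most when a library was left out. They ranged from 190 (without WT replicate 1) to 1777 (without JMJD1B-/- replicate 2) lower and from 127 (without WT replicate 1) to 1367 (without JMJD1B-/- replicate 1) higher. Without WT replicate 2 they were 282 and 247, without JMJD1B-/- replicate 1 1349 were lower, and without JMJD1B-/- replicate 2 732 were higher. At an adjusted p under 0.05, in either direction, there were 5 genes, 18 with a pseudocount of 1, 3 with a pseudocount of 0.01 and with a filter at 1 RPKM, 5 without a filter, 1 each with median-ratio scaling and quantile normalization, 0 with limma without trend (where 768 were lower and 346 higher at an unadjusted p under 0.05), 0 with the gene-by-gene test (512 and 348), 989 without JMJD1B-/- replicate 1, 547 without JMJD1B-/- replicate 2, 6 without WT replicate 1 and 1 without WT replicate 2. With a library left out, related genes ranged from 13 to 43 lower and from 0 to 5 higher. Without WT replicates 1 and 2 in turn, 13 and 20 were lower and 0 and 1 higher. Without JMJD1B-/- replicates 1 and 2 in turn, 4 and 5 were higher. A genotype reduced to 1 library is assumed to vary like the other. With the replicate number as a block, 914 genes were lower, 571 higher and 256 had an adjusted p under 0.05, and 42 related genes were lower and 3 higher. Across 11863 genes the deviations of same-numbered libraries had r = −0.0543 and no label ties a number to a shared animal or day, so the samples were treated as unpaired, although 7 of 8 eosinophil markers separated by number. At a given level, counting error is largest in JMJD1B-/- replicate 1, which has the lowest depth. The part of depth in the spread between libraries was not tested.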
